A study of Mus musculus with 4 samples.

Results

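The enzymes of glycolysis and lactate production were followed through mouse embryonic stem cells with and without the corepressors CTBP1 and CTBP2. The member genes, Hk2, Gpi1, Aldoa, Tpi1, Gapdh, Pgk1, Pgam1, Eno1 and Ldha, were chosen by name, with earlier results of these data known, and a member was any probe set whose single gene symbol was one of them. Of these 9 genes, 6 had such a probe set, among 22180 genes with a probe set of 1 symbol. They had 9 probe sets, with 3 for Gapdh, 2 for Pgam1 and 1 each for Hk2, Tpi1, Pgk1 and Ldha. Eno1 and Gpi1 matched no probe set by this rule, and Aldoa appeared on a probe set that also named Aldoart1.

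The cells were E14tg2a, a feeder-independent line, grown in serum plus LIF, and RNA was measured on GeneAtlas arrays. The 4 groups were wild type (WT) at d0, WT at d2, Ctbp1/2 double knockout (DKO) at d0 and DKO at d2, with 1 array per group, all on strip 2. The series title names PRDM14 overexpression and also Suz12-knockout cells, which were not analysed here. How overexpression was driven, when it began, whether every group carried it, which part of Ctbp1 or Ctbp2 was deleted and how many clones were used are not given in the sources used here, and d0 and d2 are read as days. Since each group is 1 array, a difference between arrays has no error, and it has no replicate check.

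Glycolysis turns glucose into pyruvate in the cytosol and yields ATP and NADH, and lactate dehydrogenase then reduces pyruvate to lactate and returns NAD+. Pluripotent cells rely heavily on this pathway, and primed pluripotent cells are known to use it more than naive ones. The CTBP proteins bind NADH, a product of the GAPDH step, and PRDM14 is a transcription regulator of naive pluripotent and germ cells.

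Promoter windows are shown for the members that the values below turn on most, Ldha and Gapdh, and for Pgk1, whose value was nearest to the median of the arrays. They are the 250 bases before the annotated start, from RefSeq, build GRCm38.p6, 5′ to 3′, and all 9 member genes had at least 1 window. Capitals mark ACGTG or GCGTG, the core letters that hypoxia-inducible factors recognise, and CACGTG, the E-box that MYC can bind, each searched on both strands. CACGTG holds ACGTG on either strand, so the motifs overlap. The windows were chr7:46845554-46845803, plus strand for Ldha, chr6:125165774-125166023, minus strand for Gapdh and chrX:106186850-106187099, plus strand for Pgk1.
Ldha: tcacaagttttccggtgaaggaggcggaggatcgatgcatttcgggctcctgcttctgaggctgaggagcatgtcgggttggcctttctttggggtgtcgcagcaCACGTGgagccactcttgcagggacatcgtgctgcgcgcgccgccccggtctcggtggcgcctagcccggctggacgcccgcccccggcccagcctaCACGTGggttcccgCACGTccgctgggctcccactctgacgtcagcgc
Gapdh: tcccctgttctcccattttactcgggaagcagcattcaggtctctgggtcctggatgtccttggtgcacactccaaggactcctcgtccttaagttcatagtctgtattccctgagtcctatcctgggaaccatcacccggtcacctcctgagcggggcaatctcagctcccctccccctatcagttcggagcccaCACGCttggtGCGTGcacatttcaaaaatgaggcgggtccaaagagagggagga
Pgk1: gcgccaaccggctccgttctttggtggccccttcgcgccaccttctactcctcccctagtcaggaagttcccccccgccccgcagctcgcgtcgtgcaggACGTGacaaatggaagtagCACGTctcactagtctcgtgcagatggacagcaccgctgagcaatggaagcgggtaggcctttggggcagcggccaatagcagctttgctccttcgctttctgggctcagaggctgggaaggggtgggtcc
The Ldha window shown held 2 copies of CACGTG and 5 matches to ACGTG, counted on both strands. RefSeq gives Ldha a further window, chr7:46846832-46847081, plus strand, which held neither motif and 1 match to GCGTG, and through which Ldha counts among the members with GCGTG. The Pgk1 window held 2 matches to ACGTG and the Gapdh window 2 to GCGTG. Over all 32851 windows of this length, 16.6% held ACGTG, 28.2% GCGTG and 6.02% CACGTG. By gene, ACGTG was found for 5 of 9 members against 18.5% of 27025 genes, GCGTG for 4 of 9 against 30.9%, and CACGTG for Ldha alone among the members, against 6.86%. These matches describe letters and not binding.

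Values of the array table, taken as log2, are small for most genes. Array medians lay between 0.35 and 0.41, and between 9.50% and 11.4% of the probe sets exceeded 1. On that assumed scale, 2-fold stands for a difference of 1. The DKO d2 array stood apart, with a Pearson correlation of 0.727 to each other array across probe sets where the other pairs gave 0.827 to 0.832. Differences that use it are therefore given beside those that do not, the d2 change in WT and the genotype difference at d0. The genes named by the design did not check the labels. Prdm14 went from 0.34 at d0 to 0.42 at d2 in WT and from 0.24 to 0.68 in DKO. Ctbp1 measured 0.63 and 0.32 in WT against 0.56 and 0.42 in DKO, and Ctbp2 0.55 and 0.46 against 0.55 and 0.42. A probe set outside the deleted part checks nothing, so every direction rests on the labels. Of 16 markers of pluripotent stem cells, 11 lay above the 40th percentile of all values (0.30) on all 4 arrays. The share of all probe sets that did was not counted. The 16 markers had a median between 0.51 and 0.61 on each array and a summed level between 9.49 and 10.4, and Dppa3 was the brightest, at 1.52 to 2.00. Single markers were less steady: Dppa5a went from 0.96 at d0 to 0.72 at d2 in WT and from 1.23 to 0.0049 in DKO. It was the 1 marker of this list 2-fold apart at d2 in DKO, where 0.888% of all genes were. Of the 16, 8 were above 0 in that change. The markers of primed or formative cells had medians of 0.63 to 0.78 and summed levels of 5.44 to 6.42 over 8 genes, those of fibroblasts or feeder cells 0.51 to 0.64 and 4.23 to 5.53 over 8 genes. The markers of primitive endoderm, trophoblast, neural and mesoderm cells, 19 measured genes in all, had list medians between 0.28 and 0.93. On each array the median of the pluripotency list was below those of the primed or formative and the mesoderm lists. The list levels thus do not set pluripotent stem cells apart from other cells in these data. Each of these levels also reflects the probes that read it. The part that other cell types had in the results was not tested.

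Of the 9 member probe sets, 8 lay above 0.30 on every array and Pgk1 did not. The mean over the arrays was at least 1 for 3 of them, the brightest Gapdh probe set, a further Gapdh probe set and Ldha. All 9 reached the 60th percentile of all values (0.46) on at least 1 array, as did 16085 of the 23521 named probe sets. The share of all probe sets above 0.30 on every array was not counted. Because these are bulk samples, fewer cells of a type and less RNA per cell cannot be told apart in any of them.

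**Figure D1:**
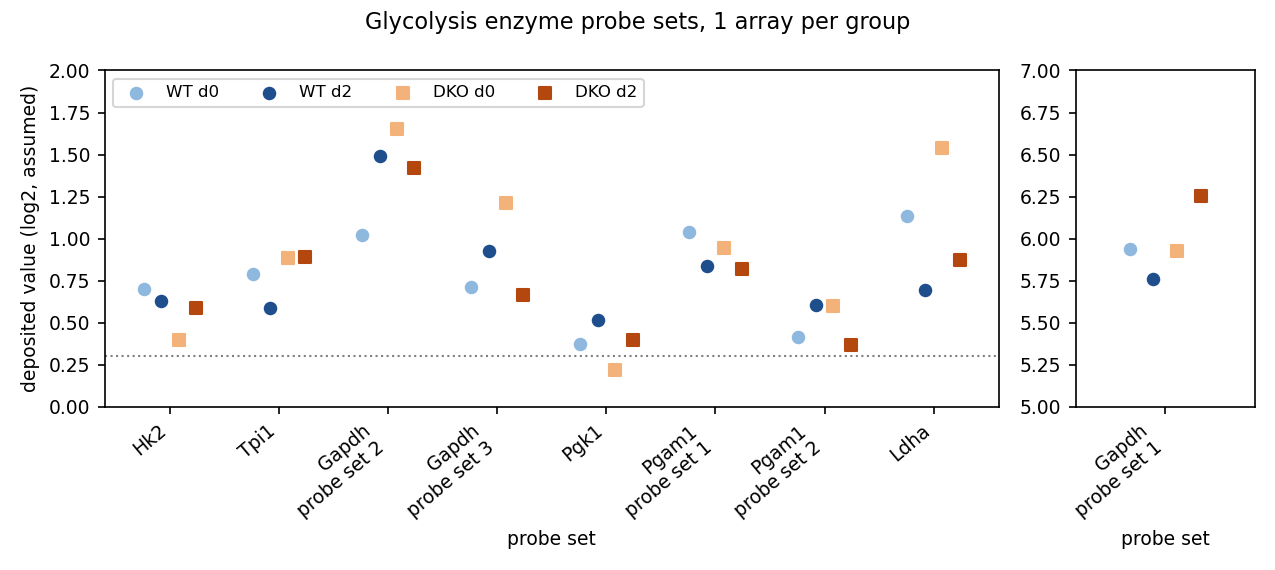
Deposited values (log2, assumed) of the 9 member probe sets, with 1 point per array and no error bars since each group is 1 array; the dotted line is the 40th percentile of all values (0.30), and the brightest Gapdh probe set has an axis of its own that starts at 5. Gapdh probe set 1 lies between 5.76 and 6.25 on all arrays, and Ldha ranges from 0.69 on WT d2 to 1.54 on DKO d0.

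Hexokinase 2, the inducible enzyme that phosphorylates glucose at the entry of the pathway, measured 0.70 at d0 and 0.63 at d2 in WT and 0.40 and 0.59 in DKO. Its DKO d0 array was the lowest, and the other arrays lay between 0.59 and 0.70. The d2 minus d0 difference was -0.07 in WT and 0.19 in DKO. Among the 200 probe sets nearest to Hk2 in mean level, 78 had a lower difference in WT and 141 in DKO, so Hk2 lay inside the bulk of genes of like level in both.

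Triosephosphate isomerase, encoded by Tpi1, interconverts the triose phosphates that aldolase makes. It measured 0.79 at d0 and 0.58 at d2 in WT and 0.89 on both days in DKO. WT d2 was the lowest and the DKO arrays did not differ at this precision, with a difference of -0.20 in WT and 0.0014 in DKO. Of 200 probe sets of like level, 54 were lower in WT and 80 in DKO.

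Gapdh, which oxidises glyceraldehyde 3-phosphate and reduces NAD+ to NADH, had probe sets that disagreed. Probe set 1 (17546512), whose mean stood at percentile 99.9 of the named probe sets, measured 5.94 at d0 and 5.76 at d2 in WT and 5.93 and 6.25 in DKO. It was lowest on WT d2 and highest on DKO d2, a difference of -0.18 in WT and 0.33 in DKO. Probe set 2 (17439361) measured 1.02 and 1.49 in WT and 1.65 and 1.42 in DKO. Here WT d0 was the lowest and DKO d0 the highest, a difference of 0.47 in WT and -0.23 in DKO. Probe set 3 (17260881) measured 0.71 and 0.93 in WT and 1.21 and 0.66 in DKO, also highest on DKO d0, with differences of 0.21 and -0.55. Probe set 1 thus went the opposite way to the dimmer pair in each genotype. Averaging the 3 probe sets gave 0.17 in WT and -0.15 in DKO, so the direction of Gapdh rests on which probe set is read. Quantile normalization of the table moved the DKO difference of probe set 1 to 0.78.

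A further 7 probe sets named Gapdh together with Gm12070 and fall outside the rule. They gave 6 distinct sets of values, since 2 of them were identical on every array, so probe sets with these symbols are not independent measurements. Their mean levels ran from 0.67 to 2.05. All 6 were highest on DKO d0. The d2 minus d0 difference ran from -0.012 to 0.76 in WT, where 5 of 6 were above 0, and from -0.63 to -0.46 in DKO, where 6 of 6 were below 0. Gapdh probe sets 2 and 3 had the same signs as most of these, and probe set 1 did not. A probe set named for Gapdh-ps15 and Gapdh measured 0.065 and 0.22 in WT and -0.041 and 0.29 in DKO, with a difference of 0.15 in WT and 0.33 in DKO. These probe sets were examined after their values were seen, and signal of Gapdh and of near-identical copies cannot be told apart by them.

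**Figure D2:**
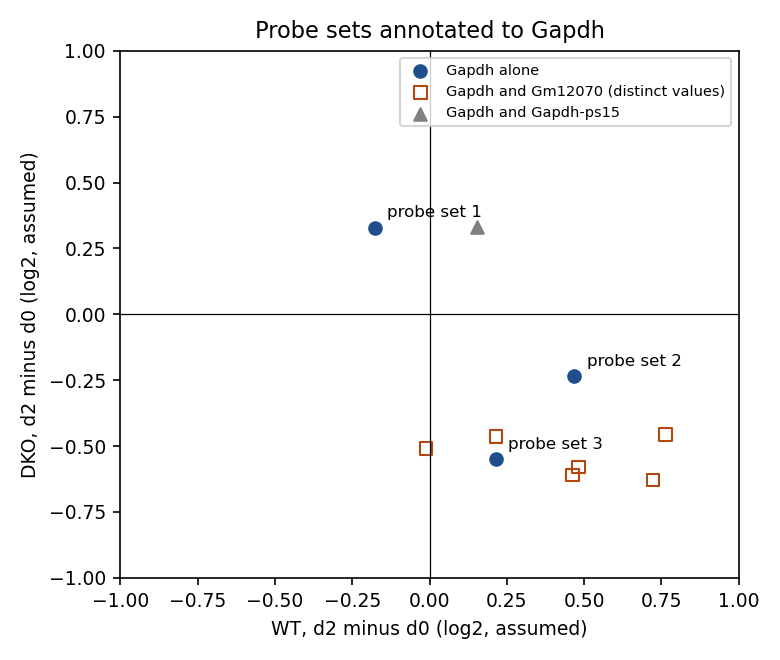
The d2 minus d0 difference (log2, assumed) in WT on the horizontal axis and in DKO on the vertical axis for each probe set annotated to Gapdh, with filled circles for Gapdh alone, open squares for Gapdh and Gm12070 and a triangle for Gapdh and Gapdh-ps15. Probe set 1, at -0.18 and 0.33, lies in the quadrant opposite to probe sets 2 and 3.

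Pgk1, phosphoglycerate kinase, carries out the first ATP-forming step. It measured 0.37 at d0 and 0.52 at d2 in WT and 0.22 and 0.40 in DKO, and its mean stood at percentile 48.2 of the named probe sets. It was higher at d2 on both pairs, by 0.14 in WT and 0.18 in DKO, but its DKO d0 value lay below 0.30. Of the 200 probe sets of like level, 143 had a lower difference in WT and 149 in DKO.

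Pgam1, phosphoglycerate mutase, moves the phosphate group of phosphoglycerate before enolase acts. Probe set 1 (17404152) measured 1.04 at d0 and 0.84 at d2 in WT and 0.94 and 0.82 in DKO. Probe set 2 (17359466) measured 0.41 and 0.60 in WT and 0.60 and 0.37 in DKO. The differences were -0.20 in WT and -0.13 in DKO for probe set 1, and 0.19 and -0.23 for probe set 2. The WT difference had opposite signs on the 2 probe sets and was near 0 when they were averaged (-0.0047).

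Ldha, the lactate dehydrogenase subunit that favours reduction of pyruvate to lactate, had the lowest d2 difference of the members in both genotypes. It measured 1.14 at d0 and 0.69 at d2 in WT and 1.54 and 0.87 in DKO. Both d2 arrays were below both d0 arrays, a difference of -0.45 in WT and -0.67 in DKO. The estimate shared by both genotypes was -0.56 with a standard error of 0.20. It is given with no test since the d2 contrast was among the results known when the genes were chosen. That standard error reflects how far the genotypes depart from a common change, with variance shared over probe sets. It is not a replicate error. Of the 200 probe sets nearest in mean level, 17 had a lower difference in WT and 14 in DKO, and 90% of them lay between -0.51 and 0.56 in WT and between -0.75 and 0.56 in DKO. Ldha was inside both intervals, close to their lower ends. Among the cell type markers, Gata6, a transcription factor of primitive endoderm, was also lower on both d2 arrays than on both d0 arrays, at 0.88 and 0.32 in WT and 1.27 and 0.62 in DKO, and higher in DKO at d0 by 0.40. Gata4, a further factor of that lineage, had d2 differences of -0.27 in WT and -0.17 in DKO. Of the 6 primitive endoderm markers, 4 were above 0 in WT (median 0.03) and 2 in DKO (median -0.12), and their summed level was 2.62 at d0 and 1.99 at d2 in WT and 3.29 and 2.88 in DKO. Markers of other lists were likewise lower on both d2 arrays than on both d0 arrays. The neural marker Pax6 was at 0.88 and 0.26 in WT and 0.61 and 0.24 in DKO. The pluripotency marker Dppa5a was at 0.96 and 0.72 in WT and 1.23 and 0.0049 in DKO. The order was thus not particular to primitive endoderm, and the part of any of these markers in the Ldha result was not tested.

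The shared Aldoa and Aldoart1 probe set measured 0.24 at d0 and 0.083 at d2 in WT and 0.29 and 0.90 in DKO. Aldolase A splits fructose 1,6-bisphosphate. The DKO d2 array was the highest, the remaining arrays lay below 0.30, and the difference was -0.16 in WT and 0.61 in DKO. It names several genes and cannot be given to Aldoa alone.

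The members were set beside all probe sets in the d2 change. In WT none of the 9 was 2-fold apart, where 0.31% of 23521 probe sets were. In DKO none was either, where 0.876% were. These were 128 higher and 78 lower probe sets, or 100 and 96 after each array was centred on a common median. In WT 4 members were above 0 and 5 below, with a median of -0.07 against 0.0065 for all named probe sets. In DKO 4 were above and 5 below, with a median of -0.13 against 0.03. Of all named probe sets, 51.1% were above 0 in WT and 55.5% in DKO. With 1 probe set per gene, the brightest, the DKO median of the 6 genes was 0.089. The robust SD of the difference over all named probe sets, a spread over genes and not over replicates, was 0.23 in WT and 0.26 in DKO. Beyond 2 of these SDs lay 1 member in WT (Gapdh probe set 2), where 7.5% of all named probe sets did, and 2 in DKO (Ldha and Gapdh probe set 3), where 8.18% did. At 1.5-fold, Ldha in DKO was the 1 member apart, where 5.47% of all probe sets were, and no member was apart in WT, where 3.03% were.

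**Figure D3:**
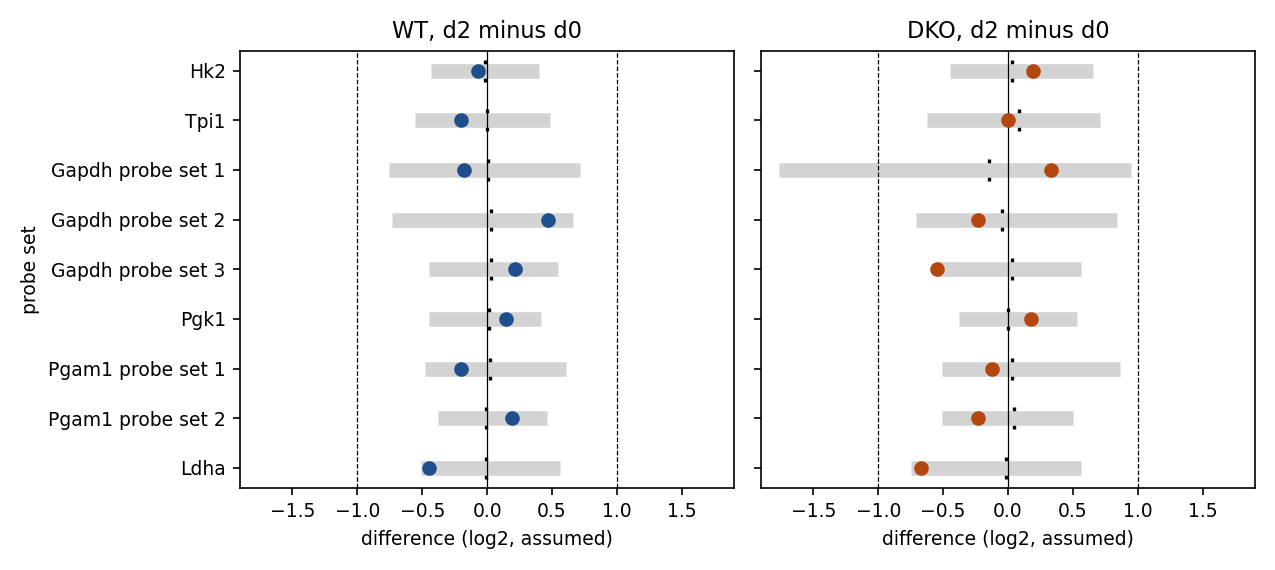
The d2 minus d0 difference (log2, assumed) of each member probe set in WT (left) and DKO (right), with grey bars for the 5th to 95th percentile and a black tick for the median of probe sets nearest in mean level; dashed lines mark 2-fold. All 9 points lie inside their bars in both panels, with Gapdh probe set 3 and Ldha near the lower ends in DKO.

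All 9 member probe sets lay between the 5th and 95th percentile of their like-level probe sets in WT, and likewise in DKO. For Gapdh probe set 1 only 117 were found, 17 of them brighter, with mean levels from 2.84 to 8.35, so its comparison is coarse. Those bright probe sets varied more in DKO, where 20.5% were 2-fold apart and 90% lay between -1.77 and 0.95, than in WT, where 5.98% were and 90% lay between -0.75 and 0.72. Gapdh probe set 2 was above 177 of 200 in WT, and Gapdh probe set 3 above 12 of 200 in DKO.

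The genotypes were compared next. At d0, DKO minus WT was 0.63 for Gapdh probe set 2, 0.50 for Gapdh probe set 3, 0.41 for Ldha and -0.30 for Hk2. The other 5 lay between -0.15 (Pgk1) and 0.18 (Pgam1 probe set 2). None was 2-fold apart, where 0.336% of all probe sets were, 1 (Gapdh probe set 2) was 1.5-fold apart, where 3.05% were, and the median was 0.10 against 0.0079. With the brightest probe set of each gene, the median of the 6 genes was -0.053 at d0 and 0.081 at d2. The d2 change in DKO uses the same DKO d0 array, so its high values of Gapdh and Ldha are not separate observations. At d2, DKO minus WT was 0.49 for Gapdh probe set 1, 0.30 for Tpi1 and 0.18 for Ldha, and the lowest was -0.26, for Gapdh probe set 3. Quantile normalization moved the value of Gapdh probe set 1 to 0.97 and cyclic loess to 0.77. With the deposited values, again none was 2-fold apart, where 0.855% were, and none was 1.5-fold apart, where 5.44% were. The median was -0.04 against 0.04.

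The genotype effect over both days was tested with limma, with day as an additive term and 1 residual degree of freedom. Its error comes from departure from additivity and not from replicates. The estimates ran from -0.17 ± 0.16 (SE) for Hk2 to 0.29 ± 0.20 for Ldha. The limma adjusted p of the members lay between 0.938 and 0.995, with 0 of 9 called and 0 with an unadjusted p under 0.05. Over all 23521 probe sets limma called 0 (0%), with 1043 at an unadjusted p under 0.05 and a lowest adjusted p of 0.938. Tpi1 was higher in DKO on both days, with an estimate of 0.20 ± 0.18 and a limma adjusted p of 0.947, Ldha likewise (adjusted p 0.938), and Hk2, Pgk1 and Pgam1 probe set 1 were lower on both days, Pgk1 with an estimate of -0.14 ± 0.14 with a limma adjusted p of 0.955. None of these differences passed the limma test, and with 1 residual degree of freedom they do not show that the genotypes are alike.

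**Figure D4:**
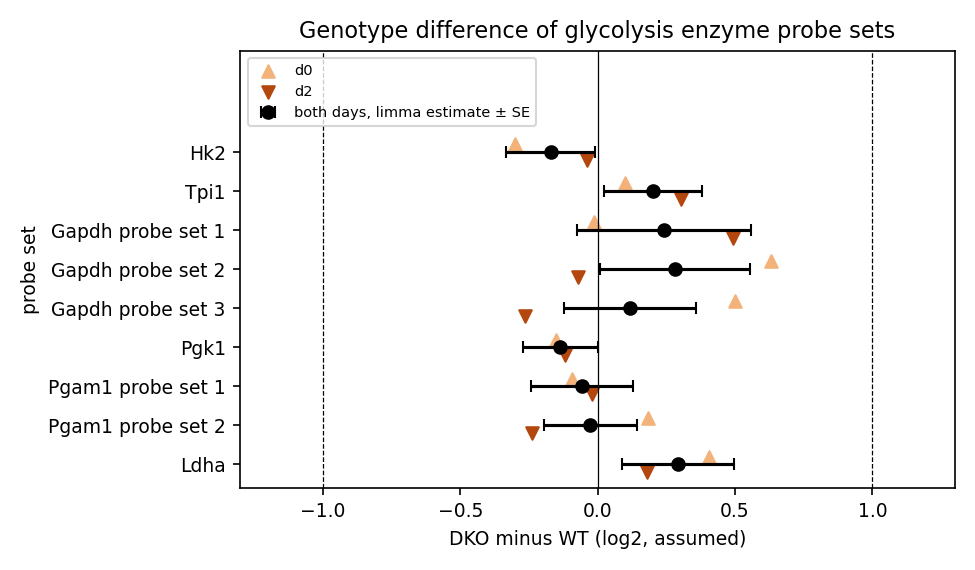
DKO minus WT (log2, assumed) for each member probe set at d0 (upward triangles), at d2 (downward triangles) and over both days (circles, limma estimate with bars of 1 standard error); dashed lines mark 2-fold. Estimates run from -0.17 for Hk2 to 0.29 for Ldha, and the d0 and d2 points of Gapdh probe sets 2 and 3 lie on opposite sides of 0.

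The DKO change minus the WT change was 0.51 for Gapdh probe set 1, -0.70 for probe set 2 and -0.76 for probe set 3. It was -0.42 for Pgam1 probe set 2, -0.22 for Ldha and between 0.03 and 0.26 for the other 4. Quantile normalization moved the value of Gapdh probe set 1 to 0.86 and cyclic loess to 0.75. With the deposited values, none of the 9 was 2-fold apart, where 2.14% of all probe sets were. Gapdh probe sets 2 and 3 were 1.5-fold apart, where 12% were, and the median was 0.03 for members and for all probe sets. Gapdh probe set 3 was the 1 member outside the 5th to 95th percentile of its like-level probe sets, at -0.76 against a lower bound of -0.73. That interval holds 90% of the like-level probe sets by construction, so 1 of 9 outside is near the share over genes of like level. This difference uses all 4 arrays and has no error, and it was not tested.

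The other genes of the pathway were read from lists. Of 84 further genes in 6 lists, 76 were measured by a probe set of 1 symbol. None was 2-fold higher or lower at d2 in WT or in DKO, where 0.32% and 0.888% of genes were, with 36 of 76 above 0 in WT (median -0.018 against 0.0070 for all genes) and 28 of 76 in DKO (median -0.03 against 0.03). Beside these and the list counts below, 51.1% of all named probe sets were above 0 in WT and 55.5% in DKO. Above 0.30 on all 4 arrays were 10 of 22 other enzymes of glycolysis, 4 of 9 transport genes and 11 of 23 regulators. So were 1 of 6 pentose phosphate genes, 1 of 7 gluconeogenesis genes and 3 of 12 other hypoxia targets. Among 22 other enzymes of glycolysis and lactate production, 11 were above 0 in WT and 7 in DKO. Pkm, pyruvate kinase of the last ATP-forming step, was the brightest and measured 0.70 at d0 and 0.99 at d2 in WT and 0.96 and 1.29 in DKO, higher at d2 by 0.29 in WT and 0.34 in DKO. Pkm and Ldha, which act on consecutive steps, thus differed in sign at d2 in both genotypes. Muscle enolase, Eno3, was at 0.19 in WT and -0.03 in DKO, and Pgam5, a mitochondrial phosphatase named for its likeness to the mutases, at -0.17 and 0.80 on the brighter of its 2 probe sets and at -0.02 and -0.23 on the dimmer. Ldhd, a mitochondrial D-lactate dehydrogenase, measured 0.75 and 1.45 in WT and 0.62 and 0.43 in DKO. Its DKO minus WT difference at d2 was -1.02, the 1 value among the pathway genes that passed 2-fold between genotypes on a single day, where 0.87% of all genes did at d2.

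Among 9 transport genes, 5 were above 0 in WT (median 0.16) and 3 in DKO (median -0.04). Slc16a3, which exports lactate, had a WT difference of -0.31 and a DKO difference of -0.02, Mpc1 of the mitochondrial pyruvate carrier 0.36 and -0.40 (-0.01 and 0.25 on its dimmer probe set), and the glucose transporter gene Slc2a4 0.16 and -0.16. Of 23 regulators, 9 were above 0 in WT and 12 in DKO, with medians of -0.04 and 0.01. The pyruvate dehydrogenase subunit gene Pdha1 had a WT difference of -0.14 and a DKO difference of 0.34, Arnt, the partner of the hypoxia-inducible factors, -0.02 and -0.03, and Max, the partner of MYC, 0.03 and 0.04. Both partner genes thus differed by less than the robust SD over all probe sets. The factor genes themselves were dimmer than these 3. Hif1a had a WT difference of 0.21 and a DKO difference of 0.08, Epas1 -0.28 and -0.07, Myc -0.26 and 0.22, and Mycn 0.15 and 0.08. Epas1 and Myc passed the robust SD in WT (0.23), and none of the 4 did in DKO (0.26).

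Of 6 pentose phosphate genes, 3 were above 0 at d2 in WT (median -0.017) and 0 in DKO (median -0.25). All 6 were higher in DKO than in WT at d0 (median 0.17), a comparison that uses the same DKO d0 array. Over all named probe sets, 51.1% were above 0 at d2 in WT and 55.5% in DKO. For DKO minus WT at d0 that share was 51.3%. These counts were not tested. Pgd, 6-phosphogluconate dehydrogenase, measured 0.54 at d0 and 1.001 at d2 in WT and 0.85 and 0.30 in DKO, and its DKO change minus WT change of -1.01 passed 2-fold, where 2.21% of all genes did. The d2 difference of Pgls was 0.10 in WT and -0.0092 in DKO (0.26 and -0.10 on its dimmer probe set), and that of Rpe 0.08 and -0.29. Of 7 gluconeogenesis genes, 2 were above 0 in WT and 3 in DKO (medians -0.04 and -0.02), with Fbp2 at -0.17 and -0.05, Pck1 at -0.04 and -0.17 and G6pc at -0.01 and 0.59. Of 12 other hypoxia targets, some of which also stand in the lists above, 6 were above 0 in WT and 5 in DKO, with a median of -0.05 in each. Ndrg1 was at 0.08 in WT and -0.51 in DKO (0.20 and -0.22 on its dimmer probe set), Ero1a at 0.11 in each (0.53 and 0.22 on its dimmer probe set), and Vegfa at 0.14 and -0.36.

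**Figure D5:**
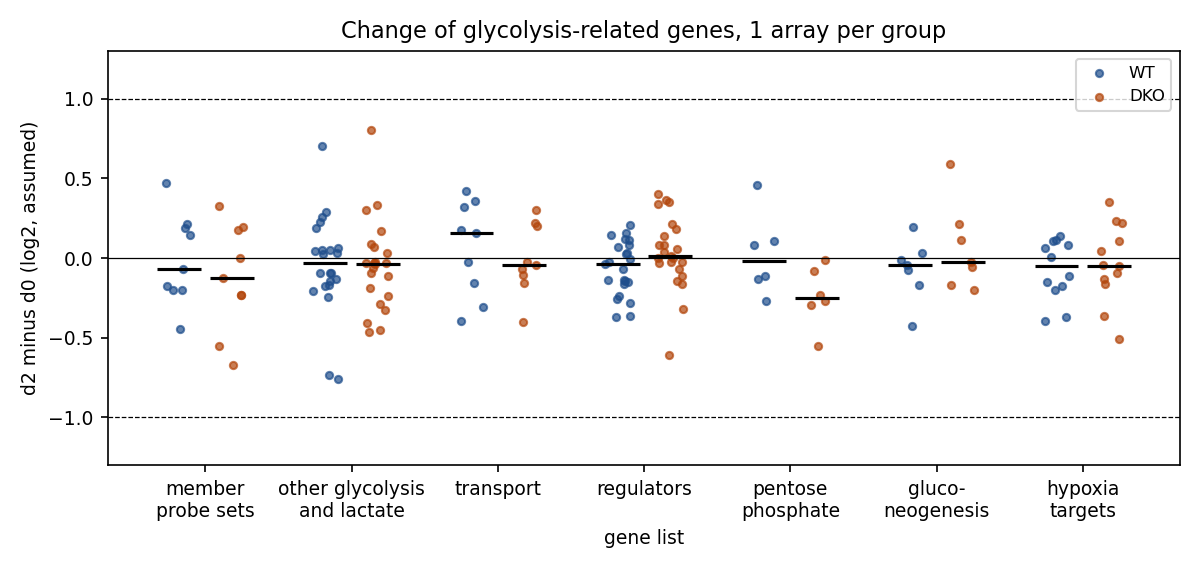
The d2 minus d0 difference (log2, assumed) of the 9 member probe sets and of each gene of the 6 lists, in WT (blue) and DKO (orange), with black lines for medians, sideways scatter only to separate points, and dashed lines at 2-fold. No point reaches a dashed line, and the medians run from -0.25 (pentose phosphate genes, DKO) to 0.16 (transport genes, WT).

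Genes with the pattern most like those of the brightest members were sought among 1100 probe sets with a mean of at least 1, by the root mean square distance between values centred on their own mean over the 4 arrays. Nearest to Ldha were Fgfr1, a fibroblast growth factor receptor gene (0.05), Clic3, of the chloride intracellular channel family (0.06), and the keratin-associated gene Krtap19-5 (0.08). Fgfr1 measured 1.39 at d0 and 0.90 at d2 in WT and 1.75 and 0.99 in DKO. Nearest to Gapdh probe set 1 were Pcp4l1 (0.03), Mir551b (0.03) and Tmem238 (0.03). With 4 arrays, some of 1100 probe sets will lie close to any pattern, so these are descriptions.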

How the data were processed

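Biotin-labelled total RNA was measured on 4 arrays, 1 per group. The deposited table holds log2 values made by the authors with RMA, per the submitters' processing notes, with no version given. The log base is taken from RMA's usual output. RMA output rarely holds this many values under 1, and every fold rests on the assumption. No genome build is named for the arrays, so no array coordinates are printed.

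Of 41345 probe sets, 23521 had 1 gene symbol in GEO's platform annotation, 1814 had several and 16010 had none. Symbols were updated by Entrez number through RefSeq (GRCm38.p6), where 23328 matched. The values were used as deposited, with no filter, so no member was removed. Members, lists and tests were chosen with earlier results of these data known. The number of arrays limits the precision.

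Differences between single arrays were computed for 5 comparisons and counted at 2-fold. Each member was set beside the 200 probe sets nearest in mean level, 100 on either side where they existed. Lists used the brightest probe set per gene. Named were the 3 brightest genes of each pathway list, every gene of those lists past 2-fold in a comparison, and Hif1a, Epas1, Myc and Mycn. The genotype term was fitted with limma 3.58.1 in R 4.3.3 (lmFit, eBayes with trend, day as an additive term, Benjamini-Hochberg over all named probe sets, threshold 0.05). This step was run on simulated data, where every change was larger than any member estimate and the noise varied only with mean level. It does not show that changes as small as those of the members would be found. Python 3.11.15 with numpy 2.4.6, pandas 2.3.3, scipy 1.17.1 and matplotlib 3.10.9 did the rest. Alternatives were equal medians, quantile normalization, cyclic loess, other uses of a gene's probe sets, filters at the 40th and 60th percentiles, a 1.5-fold threshold, 100 or 400 neighbours, and limma without trend or with robust moderation.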

Additional observations from a re-analysis of the deposited data

Results flagged for a closer look

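For 6 of the 9 member probe sets the d2 minus d0 difference had opposite signs in WT and DKO, and the difference between genotypes was not tested. Over all named probe sets, 51.1% were above 0 in WT and 55.5% in DKO. The share with opposite signs was not counted, so 6 of 9 cannot be read as a trait of the members. Tpi1 is among the 6 with a DKO difference of 0.0014, which became -0.046 with equal array medians, the sign seen in WT. The DKO change minus the WT change was 0.26 for Hk2, 0.20 for Tpi1, whose DKO difference was nearly 0, and 0.51 for Gapdh probe set 1. It was -0.70 for Gapdh probe set 2, -0.76 for Gapdh probe set 3 and -0.42 for Pgam1 probe set 2. With 1 array per group a sign carries no error, and each of these values uses the DKO d2 array, which correlated less with the others.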

How the results depend on the processing

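No paired analysis was possible because each group is 1 array and the labels carry no replicate numbers; for the same reason no replicate could be left out. No member passed 2-fold in any of the 5 comparisons under the scaling, probe set and filter alternatives. The filters removed no member, so they could not change these counts. In WT, 0 of the 200 like-level probe sets were 2-fold apart at d2 for Hk2, Tpi1, Gapdh probe set 3 and Pgam1 probe set 2. For these a count of 0 says little. Gapdh probe set 1 came close, at 0.97 in DKO minus WT at d2 with quantile normalization. With a 1.5-fold threshold the count became 1 in the DKO d2 change (Ldha), 1 in the genotype difference at d0 (Gapdh probe set 2, where 3.05% of all probe sets passed) and 2 in the difference between the changes (Gapdh probe sets 2 and 3, where 12% did). Of 35 alternative medians 1 moved by more than the residual SD of the limma fit, which stood in for a replicate spread: the DKO d2 change with the brightest probe set per gene, at 0.089. The medians under the 2 filters are among the 35 and could not move, since no member was removed. The sign turned in 8 of the 35: with the brightest probe set per gene in the DKO d2 change (0.089) and in the genotype difference at d0 (-0.053) and d2 (0.081), with a mean of probe sets at d2 (0.0069), and in the difference between the changes with equal array medians (-0.0022), quantile normalization (-0.0031), cyclic loess (-0.0048) and a mean of probe sets (-0.071). The limma genotype fit called 29 probe sets with the filter at the 60th percentile and 0 in the other settings. No member was among the 29, and the cause was not tested. With that filter the prior degrees of freedom, the weight given to variance shared over probe sets, were 91.7, against 4.79 in the main fit. The 29 are therefore not read as genotype effects. Of 120 alternative differences of single genes, 10 moved by more than that SD and 14 changed sign. Those of Hk2, Tpi1, Pgk1 and Ldha under a mean of probe sets could not move, since each has 1 probe set. Of 36 alternative places among like-level probe sets, 0 left the binomial interval of the main one. The 100 nearest are part of the 200 and these of the 400, so this check could hardly fail.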
